A study of Mus musculus with 2 samples.

Results

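The mitochondrial carrier family Slc25 was followed in mouse gastrocnemius, the large calf muscle, by long-read RNA sequencing. Its members were taken as the protein-coding genes whose symbol starts with Slc25a, which gave 47 of the 22028 protein-coding genes of the GENCODE M21 annotation. All reads assigned to such a gene were counted. The samples form a single group, gastrocnemius of 14-day-old female mice of the strain B6CASTF1/J, an F1 hybrid of C57BL/6 and CAST, with total RNA as the source and 2 µg of it as the starting quantity. The group has 2 libraries, named biological replicates 1 and 2. In its biosample text, replicate 1 is described as 3 females, whereas replicate 2 is described as a female with no count. Whether animals were pooled is not given. Both carry the same donor entry, and nothing else describes separate animals, so the spread between them may be partly technical. The design holds no contrast between conditions, and the comparisons are between members and between the 2 libraries.

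Carriers of this family sit almost all in the inner mitochondrial membrane, where each exchanges or carries a small set of metabolites between the cytosol and the matrix. They share a fold of repeated helix pairs and open to one side of the membrane at a time. In skeletal muscle the family is best known for the export of ATP against ADP, the import of phosphate, the malate-aspartate shuttle and the entry of carnitine-bound fatty acids. Genes of the same fold with other names, such as the uncoupling proteins, were treated as a separate list.

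The libraries held 1248854 and 1106450 reads of annotated genes, so that a single read was worth 0.801 and 0.904 CPM (reads of a gene per 1000000 reads of all annotated genes). A count of 0 allows up to 3 reads, or 2.40 and 2.71 CPM. A long read stands for a molecule and was not divided by transcript length, so levels of genes are given as molecules read. The libraries differed by transcript length, so how evenly each sampled short and long transcripts is not known. Levels of genes of unlike length are compared under this limit. Expressed as log2 of replicate 1 over replicate 2, 8973 genes tested had a median of -1.29 where annotated models were up to 1000 bases long and of 0.59 where they exceeded 4000 bases. A list of muscle genes set up for fast fibres (Myh4, Myh1, Atp2a1, Acta1, Ckm, Tnnt3 and Pvalb) took 28.3% and 18.9% of gene reads. A slow-fibre list took 0.238% and 0.655%. Acta1 (71568 and 72383 CPM) and Ckm (61198 and 60042 CPM) are not particular to fast fibres. Atp2a1 alone had 144343 and 39622 reads. The log2 ratio was above 0 for 3 genes of the fast list and below 0 for 4. In the slow list it was above 0 for 2 genes and below 0 for 4. The sums are therefore no measure of fibre type. The muscle label held against its markers, since all 7 genes of the first list had over 1000 CPM in both libraries. The liver and testis genes Alb, Apoa1, Prm1 and Prm2 had no read.

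The family took 17709 reads in replicate 1 and 18315 in replicate 2, which is 14180 and 16553 CPM (15367 ± 1678, SD, n = 2) or 1.42% and 1.66% of all gene reads. Reads in both libraries were found for 32 members, in a single library for 6, and in neither for 9. A mean of 100 CPM or more was reached by 6 members, and 20 had a mean of 10 CPM or more. The ADP/ATP carrier Slc25a4 alone gave 79.9% of the family's reads in replicate 1, with a Wilson 95% interval of 79.3 to 80.5%, and 82.7% in replicate 2, with one of 82.2 to 83.3%. The intervals here and below cover counting error only.

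**Figure D1:**
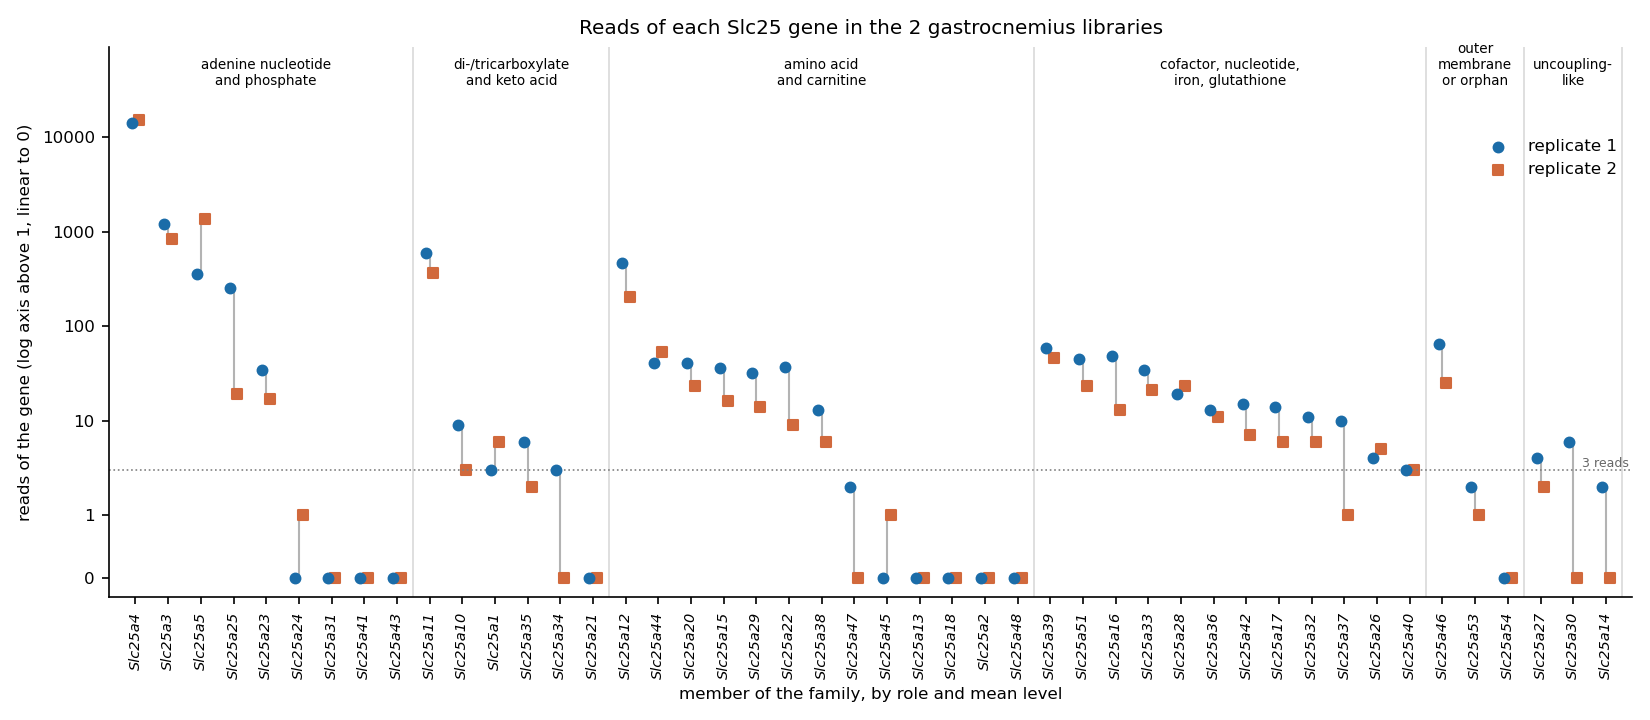
Reads of 46 members (vertical axis, log scale above 1 read and linear to 0) in replicate 1 (circles) and replicate 2 (squares), ordered by role and by mean level. Slc25a4 has 14157 and 15154 reads, and 9 members lie at 0 in both.

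The adenine nucleotide and phosphate carriers led the family with 12806 and 15708 CPM over 9 genes. Slc25a4 (ENSMUSG00000031633.4, chr8:46206797-46211284, minus strand, mm10), the muscle and heart form of the ADP/ATP carrier, had 14157 and 15154 reads, or 11336 and 13696 CPM (12516 ± 1669, SD, n = 2). It ranked 9th of all genes in replicate 1 and 8th in replicate 2. Its log2 ratio of replicate 1 to replicate 2 was -0.47, under the 1 that a call required.

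Slc25a5 (ENSMUSG00000016319.3, chrX:36795651-36798807, plus strand), the ADP/ATP carrier of most other tissues, had 354 reads in replicate 1 and 1347 in replicate 2 (283 and 1217 CPM). Its place in the family depended on which models were counted. A single genomic model, the class for reads that overlap a gene without its splicing, is listed with a length of 1 base at chrX:36798553 inside the gene. It held 171 reads (48.3% of the gene, interval 43.1 to 53.5%) in replicate 1 and 1120 reads (83.1%, 81.1 to 85.1%) in replicate 2. The fully annotated model Slc25a5-201 had 176 and 219 reads. Over all genes, genomic models of 1 base held 1823 and 11379 reads. When only annotated (Known) models were counted, Slc25a5 stood at 202 and 275 CPM of Known reads against 13024 and 13802 for Slc25a4. The testis form Slc25a31 had no read in either library. The coding sequences of Slc25a4 and Slc25a5 were 77.6% identical in alignment, and those of Slc25a31 were 62.0% and 62.5% identical to them. The annotated pseudogene Slc25a5-ps took 0 and 1 reads.

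Slc25a3 (ENSMUSG00000061904.12, chr10:91116574-91124059, minus strand), which brings phosphate and copper into the matrix, had 1192 and 842 reads (954 and 761 CPM, 858 ± 137, SD, n = 2). It was the second gene of the family by mean, but over all reads the spread of Slc25a5 (750 ± 660) covered its level. The overlap was present only with genomic models counted. In Known models Slc25a3 had 1242 and 844 CPM against 202 and 275 for Slc25a5. Without genomic models it was 958 and 713 against 150 and 214. Slc25a11 (404 ± 102) and Slc25a12 (276 ± 133) followed, with ranges over all reads that did not overlap Slc25a3 or Slc25a4 but did overlap each other and Slc25a5. In Known models Slc25a11, at 641 and 414 CPM, stood above Slc25a5 in both libraries.

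Slc25a3 carries a pair of mutually exclusive exons, called 3A and 3B. The 3A form is known as that of heart and skeletal muscle and the 3B form as that of most other tissues. The exon sequences are shown because the choice between them had the most reads of the internal exon choices compared in the family. An exon of Slc25a51 also had depth enough in Known models. It was included in 40 reads and skipped in 4 in replicate 1, and included in 19 and skipped in 1 in replicate 2. Exon 3A lies at chr10:91122207-91122331 (125 bases, in the model Slc25a3-206) and exon 3B at chr10:91121922-91122043 (122 bases, in Slc25a3-201), both on the minus strand of mm10 and read here 5′ to 3′ from GENCODE M21 transcripts. Capitals mark the 77 of 125 aligned positions (61.6%) at which both exons hold the same base.
Exon 3A: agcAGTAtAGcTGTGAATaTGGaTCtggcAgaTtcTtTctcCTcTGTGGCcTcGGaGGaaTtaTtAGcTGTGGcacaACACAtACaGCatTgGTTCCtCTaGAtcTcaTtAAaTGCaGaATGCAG
Exon 3B: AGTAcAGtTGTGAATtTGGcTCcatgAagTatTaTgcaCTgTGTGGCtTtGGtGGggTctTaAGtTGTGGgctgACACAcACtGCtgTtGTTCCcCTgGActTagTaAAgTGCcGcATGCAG
The exons differ in length by 3 bases and leave the same remainder of 2 on division by 3, so either one keeps the reading frame of the exons after it.

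In Known models, 1018 reads of replicate 1 held exon 3A and 50 held exon 3B, which is 95.3% exon 3A with a Wilson interval of 93.9 to 96.4%. Replicate 2 had 638 reads with exon 3A and 31 with exon 3B, or 95.4% (93.5 to 96.7%). The muscle form thus led in both libraries, and the share did not differ between them beyond counting error (mean 95.3% ± 0.0338, SD, n = 2; Fisher's exact test, two-sided, p = 1, adjusted p = 1 over 494 internal exons of all genes, of which 0.202% were called). No Known read held both exons. Counting every spliced model, incomplete ones included, gave 1089 against 52 reads and 685 against 33, with 1 read of replicate 2 holding both. The model Slc25a3-206 as a whole took 93.8% and 94.8% of the Known reads of the gene (adjusted p = 0.996, Fisher's exact test; 4.81% of 853 genes were called on the share of their leading model). Among all those genes the leading model had a median share of 96.7% and 96.3%.

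**Figure D2:**
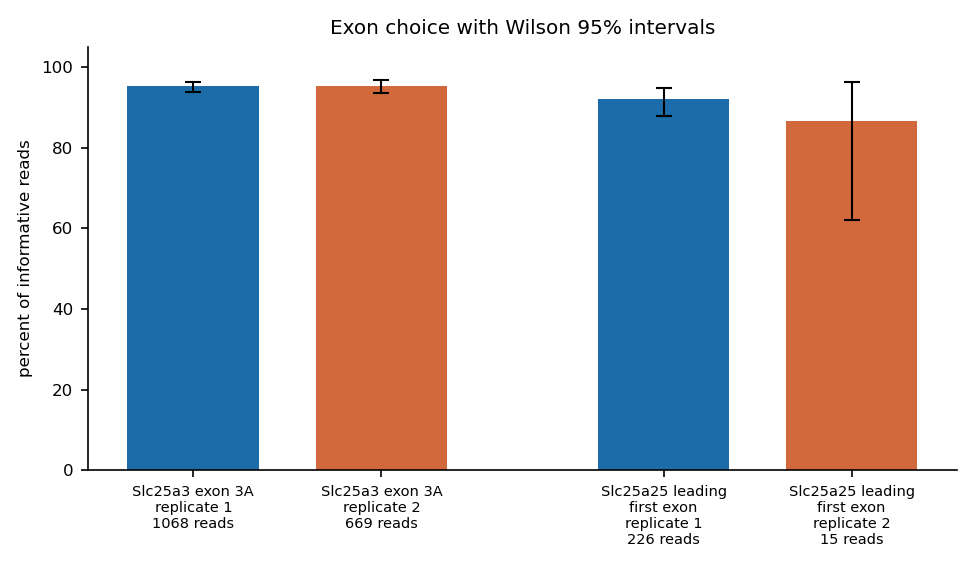
Percent of informative reads (vertical axis, from 0) that held exon 3A of Slc25a3 rather than exon 3B, and that joined the leading first exon of Slc25a25 to its shared next exon, in each library. Bars are single libraries and error bars Wilson 95% intervals; the Slc25a3 shares lie at 95.3% and 95.4%, and the 15 reads of Slc25a25 in replicate 2 give the widest interval.

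Slc25a25 (ENSMUSG00000026819.15, chr2:32414487-32451445, minus strand), a calcium-regulated carrier that exchanges ATP-magnesium for phosphate, was the member that differed most between the libraries. It had 256 reads in replicate 1 and 19 in replicate 2 (205 and 17.2 CPM). On the TMM scale, edgeR's trimmed mean of M-values, the log2 ratio was 3.35 (Fisher's exact test on reads, two-sided, adjusted p = 1.3e-46 over all genes tested). The mean of 111 ± 133 CPM (SD, n = 2) therefore describes neither library. Its calcium-regulated relative Slc25a23 had 34 and 17 reads, Slc25a24 had 0 and 1, and Slc25a41 had none. Slc25a43, for which no substrate is assigned here, had none either.

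The annotation gives Slc25a25 several first exons, and the reads came mostly from 1 of them. Of reads that joined a first exon to the shared next one, 208 of 226 (92.0%, interval 87.8 to 94.9%) in replicate 1 used the exon of model Slc25a25-203 at chr2:32423794-32424005. In replicate 2 it was 13 of 15 (86.7%, 62.1 to 96.3%). The distal first exon at chr2:32451067-32451445 had 10 and 2 reads. The same first exon led in both libraries, although the level of the gene differed. An internal exon of 36 bases at chr2:32420656-32420691 was included in 8 reads and skipped in 214 in replicate 1, and was skipped in all 15 reads of replicate 2. The 250 bases before the RefSeq start that lies closest upstream of the leading first exon are shown because nearly all reads of the gene that differed most began downstream of them. They are taken from RefSeq on GRCm38.p6, chr2:32424067-32424316 on the minus strand, ending 61 bases before the annotated start of Slc25a25-203. Capitals mark the full cyclic AMP response element TGACGTCA, 150 bases upstream of the RefSeq start, and a CCAAT box on the other strand, 78 bases upstream.
Slc25a25 promoter: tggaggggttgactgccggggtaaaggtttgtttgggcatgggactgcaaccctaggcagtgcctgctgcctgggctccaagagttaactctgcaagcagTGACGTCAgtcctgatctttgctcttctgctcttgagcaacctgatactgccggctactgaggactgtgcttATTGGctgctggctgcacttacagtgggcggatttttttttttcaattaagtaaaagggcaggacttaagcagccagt
Both strands of all promoters were searched, and overlapping matches were allowed. TGACGTCA stood in 1.55% of 32851 promoters of this length and in 2 of the 46 promoters of members, those of Slc25a25 and Slc25a36. The other Slc25a25 promoters in the RefSeq table did not hold these letters. CCAAT stood in 33.8% of all promoters and in 21 of the 46. The motifs were chosen after the values of Slc25a25 were seen, and a match is a description of letters.

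Carriers of di- and tricarboxylates and keto acids gave 493 and 342 CPM over 6 genes. Slc25a11 (ENSMUSG00000014606.14, chr11:70644196-70647479), the oxoglutarate-malate exchanger of the malate-aspartate shuttle, made up most of this with 595 and 367 reads (476 and 332 CPM). The citrate carrier Slc25a1 had 3 and 6 reads and the dicarboxylate carrier Slc25a10 had 9 and 3. Slc25a35 had 6 and 2 reads, Slc25a34 had 3 and 0, and the oxodicarboxylate carrier Slc25a21 had none. All but Slc25a11 thus stood below 10 CPM in both libraries.

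Amino acid and carnitine carriers gave 532 and 292 CPM over 13 genes, of which 7 had reads in both libraries. Slc25a12 (ENSMUSG00000027010.16, chr2:71271063-71367749), the aspartate-glutamate exchanger of muscle and brain and the other carrier of the malate-aspartate shuttle, led with 462 and 201 reads (370 and 182 CPM). Its liver counterpart Slc25a13, 70.7% identical in coding sequence, had no read. The remaining 6 with reads in both libraries stood between 5.42 and 47.9 CPM. Slc25a44, a carrier of branched-chain amino acids, had 41 and 53 reads and Slc25a20, the carnitine-acylcarnitine exchanger, had 41 and 23. Their order depended on genomic models, without which Slc25a44 had a mean of 17.8 CPM and Slc25a20 one of 27.9. Of the others, the ornithine carrier Slc25a15 had 36 and 16, and the glutamate carrier Slc25a22 had 37 and 9. Slc25a29, a carrier of basic amino acids, had 32 and 14 reads, and the glycine carrier Slc25a38 had 13 and 6. Slc25a2, Slc25a18 and Slc25a48 had no read, and Slc25a45 and Slc25a47 were seen in a single library with 1 and 2 reads.

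Carriers of cofactors, nucleotides, iron and glutathione were the only role group in which all 13 members had reads in both libraries, at a sum of 287 and 186 CPM with no member over 100. The glutathione carrier Slc25a39 had 58 and 46 reads (46.4 and 41.6 CPM). The related glutathione carrier Slc25a40 had 3 and 3 reads. The mitochondrial NAD carrier Slc25a51 had 45 and 23 reads. The pyrimidine nucleotide carriers Slc25a33 and Slc25a36 had 34 and 21, and 13 and 11 reads. Of the iron carriers, Slc25a28 had 19 and 23 reads and Slc25a37 had 10 and 1. The others were Slc25a16 with 48 and 13 reads, the coenzyme A carrier Slc25a42 with 15 and 7, the peroxisomal carrier Slc25a17 with 14 and 6, the folate and FAD carrier Slc25a32 with 11 and 6, and the S-adenosylmethionine carrier Slc25a26 with 4 and 5.

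Slc25a46, which sits in the outer membrane and takes part in mitochondrial shape, had 64 and 25 reads (51.2 and 22.6 CPM). Slc25a53 had 2 and 1 reads and Slc25a54 none. The uncoupling-like members were near the floor, with 4 and 2 reads for Slc25a27, 6 and 0 for Slc25a30 and 2 and 0 for Slc25a14.

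Between the libraries, the 26 members whose reads summed to 10 or more were compared by Fisher's exact test on reads, two-sided, with Benjamini-Hochberg adjustment over all 8973 genes tested. This test compares the reads of these 2 libraries and holds no spread between animals. It sets a gene's reads against the raw library totals, so TMM, total or DESeq2 scaling changes only the log2 ratio. Members were called at an adjusted p under 0.05 if their log2 ratio was also at least 1 in size. There were 4 members called higher in replicate 1, against a background of 9.94% of all genes, and 1 called higher in replicate 2, against 10.6%. The former are 15.4% of the members tested, on so few genes not far from the background. Besides Slc25a25, they were Slc25a22 (37 and 9 reads, log2 ratio 1.62, adjusted p = 0.00099), Slc25a16 (48 and 13 reads, 1.48, adjusted p = 0.00034) and Slc25a37 (10 and 1 reads, 2.51, adjusted p = 0.044). With genomic models left out, Slc25a37 had a ratio of 2.30 and an adjusted p of 0.069 by the same test and was not called. Nor was it called with no filter on reads. Slc25a5 was the member called higher in replicate 2 (log2 ratio -2.30, adjusted p = 1.5e-161). In edgeR's exact test at a common dispersion, no member was called, against 0.134% of all genes, and 2 members and 465 of all genes had an unadjusted p under 0.05. Its dispersion (biological coefficient of variation 0.39) can only come from the 2 libraries it compares, so these counts say nothing on whether the differences would recur.

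The median log2 ratio of the 26 members was 0.64, with 20 above 0 and 6 below, against 0.10 over all genes tested. The ratio is set beside transcript length because the libraries differed by it. In the range of 1000 to 2000 bases the median was 0.32 for 11 members and -0.31 for all 2251 genes, and over 4000 bases it was 0.71 for 6 members and 0.59 for all 1909 genes. With the length trend of all genes removed (length over every model but genomic ones), the median of the members was 0.42, Slc25a25 kept a log2 ratio of 3.03 and its call. The test here was a two-sided binomial test of a gene's reads against the share that the trend gives at its length. By this binomial test Slc25a22 (1.30, adjusted p = 0.058), Slc25a16 (1.05, adjusted p = 0.088) and Slc25a37 (1.85, adjusted p = 0.34) kept ratios over 1 but not an adjusted p under 0.05. Slc25a25 was the 1 member called higher in replicate 1, against 2.77% of all genes, and Slc25a5 and Slc25a44 were the 2 called higher in replicate 2, against 5.72%. Removing a trend on the length of Known models alone gave 2 members in each direction, against 3.18% and 6.22% of all genes. There Slc25a23 was called as well at a log2 ratio of 1.96, its length being read as 598 bases from 1 Known read per library.

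**Figure D3:**
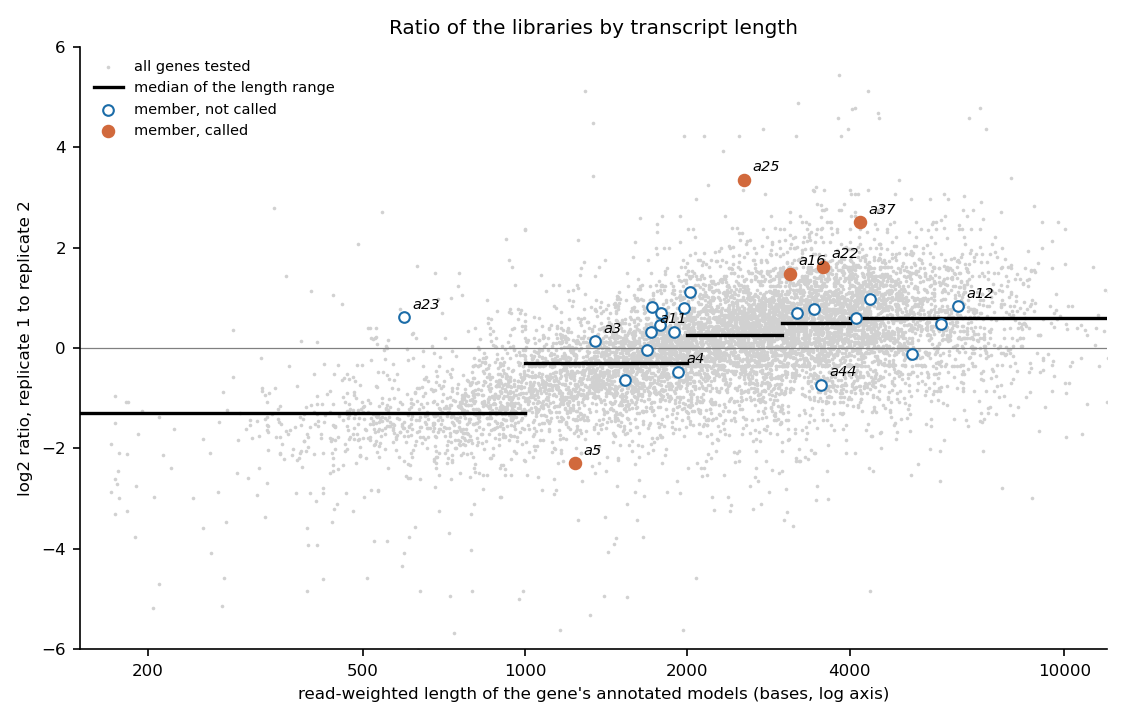
Log2 ratio of replicate 1 to replicate 2 (vertical axis) against read-weighted length in bases (horizontal log axis) for all 8973 genes tested (grey), with the median of each length range as a black line and members as circles, filled where called. Slc25a25 (a25) stands at 3.35 and Slc25a5 (a5) at -2.30, and the median of all genes goes from -1.29 in the shortest range to 0.59 in the longest.

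The call of Slc25a5 rested on genomic models. Its log2 ratio was -0.73 both in Known models and with genomic models left out, and it was called in neither. In Slc25a44, a genomic model of 2 bases at chr3:88410498-88410499, the 3′ end of the gene, held 14 of its 41 reads in replicate 1 (34.1%) and 39 of 53 in replicate 2 (73.6%). Its log2 ratio was -0.73 over all reads and 0.44 in Known models. For Slc25a12 the ratio of 0.83 became 1.14 in Known models and was called there. It was also called in full splice models (1.03) and without genomic models (1.02). With the trend on Known length removed its ratio was 0.25, and with the other length trend removed 0.22, and it was called in neither. Slc25a38 (1.95) was likewise called in Known models but not over all reads. That call rested on 12 and 2 Known reads (adjusted p = 0.040, Fisher's exact test). In full splice models its ratio was 0.81 and without genomic models 0.62, and it was called in neither. In Known models 5 of the 21 members tested (23.8%) were called higher in replicate 1, against 15.0% of all genes, and 0 higher in replicate 2, against 9.13%. Full splice models gave 4 of 24 members tested (16.7%) higher in replicate 1, against 12.6% of all genes, and 0 higher in replicate 2, where 785 of 7815 genes were called. Leaving out genomic models gave 4 and 0 of 26, against 13.2% and 10.1%. Slc25a25 and Slc25a16 were among those called in each of these 3 ways of counting. Scaling by the library total in place of TMM changed the ratios but not the p-values of Fisher's exact test. It gave 6 and 1 of 26 members, against 12.5% and 9.00%. A minimum of 50 reads gave 2 and 1 of 16 members tested, against 10.5% and 18.1%.

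**Figure D4:**
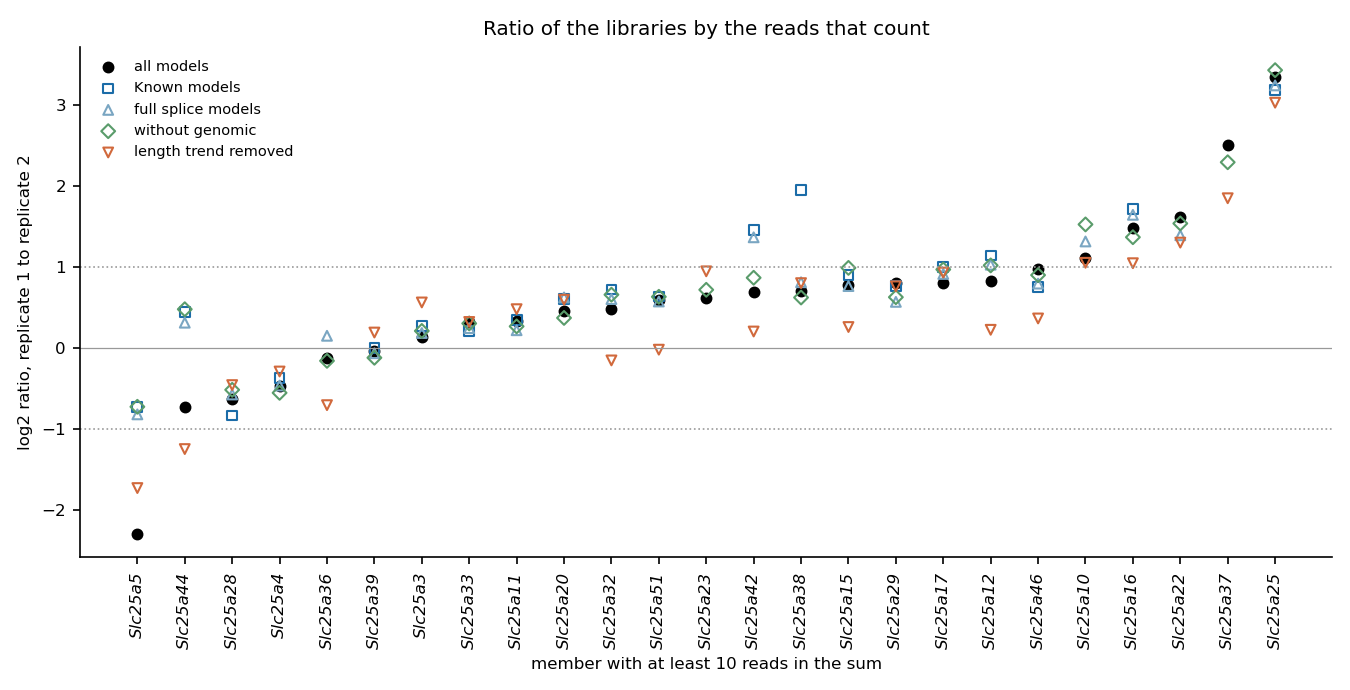
Log2 ratio of replicate 1 to replicate 2 (vertical axis) for 25 of the 26 members tested, under 5 ways of counting or scaling (symbols); dotted lines mark the size of 1 needed for a call. Slc25a25 lies between 3.03 and 3.43 in the 5 ways shown, while Slc25a5 and Slc25a44 move by more than 1 when genomic models are left out.

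Of the members' reads, 80.6% in replicate 1 and 68.8% in replicate 2 were in Known models, against 69.9% and 72.0% over all genes. Incomplete splice matches (ISM, part of an annotated intron chain) took 16.8% and 23.3%, against 8.80% and 12.9%. Most of these belonged to Slc25a4, whose unspliced ISM model covers exactly its last exon (chr8:46206797-46207620, 824 bases) and held 2636 reads (18.6%) in replicate 1 and 4015 (26.5%) in replicate 2. The full model Slc25a4-201 held 11374 and 11000 reads. Genomic models took 1.44% and 7.40% of members' reads. Without Slc25a4 this was 7.18% and 42.8%, against 2.06% and 6.49% over all genes, and 1126 of the 1354 reads in replicate 2 were those of Slc25a5. In Slc25a3 a genomic model of 221 bases within the last exon held 20 and 104 reads.

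**Figure D5:**
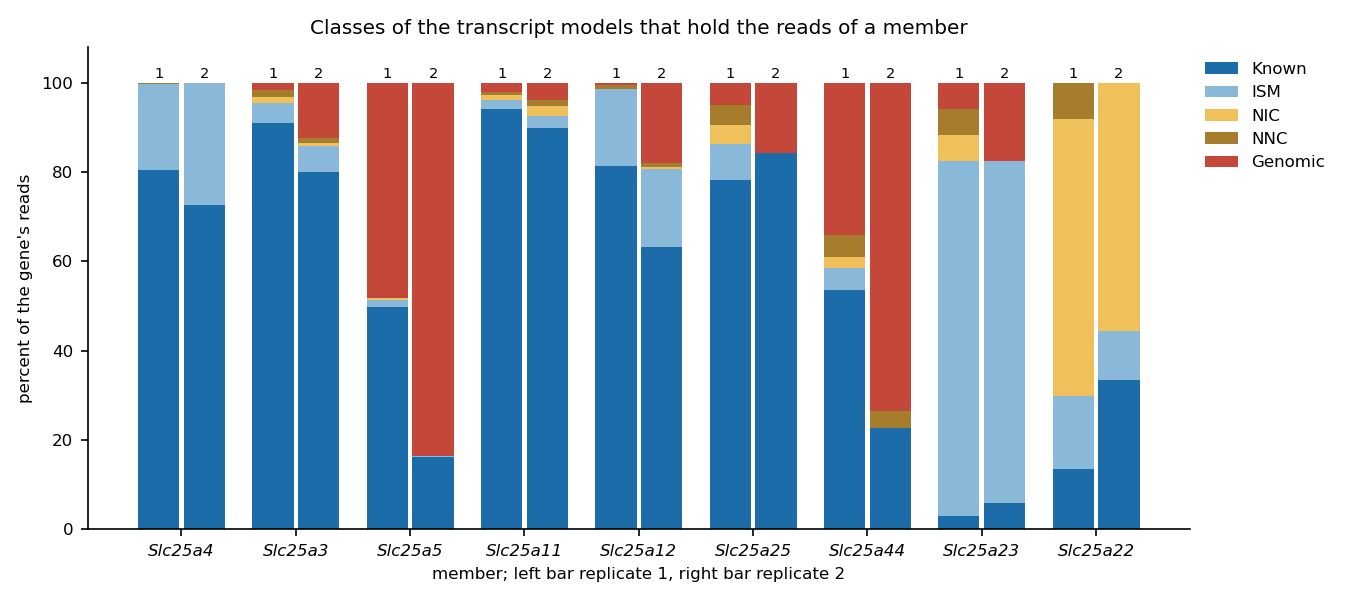
Percent of a member's reads (vertical axis, from 0) by class of transcript model, for the 6 members with the highest mean and for Slc25a44, Slc25a23 and Slc25a22; the left bar is replicate 1 and the right bar replicate 2. Genomic models fill 83.6% of Slc25a5 in replicate 2, ISM models most of Slc25a23, and unannotated chains (NIC) 62.2% of Slc25a22 in replicate 1.

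Slc25a23 was read almost only as a form that ends early. Its annotated model Slc25a23-201 has 10 exons, and 31 reads of replicate 1 ended in an extended exon 9 while 1 was joined to exon 10 (96.9% ended in exon 9, interval 84.3 to 99.4%). In replicate 2 it was 14 reads against 0. The 9-exon ISM model had 26 and 11 reads. Slc25a22 had 5 and 3 reads in Known models and 23 and 5 in NIC models, chains that are not annotated as a whole. The NIC chain of Slc25a22 with the most reads (10 exons, 9 and 2 reads) had annotated introns only, in a combination that is not annotated.

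Unannotated chains (NIC, and NNC with a splice site that is not annotated) held 215 and 89 of the members' reads, or 1.49% and 0.702% of reads in complete chains, against 21.5% and 10.7% over all genes. Much of this gap came from 2 genes. Without Slc25a4 the share of the members was 5.65% and 4.20% (173 of 3064 and 70 of 1667 reads), and without the calcium pump gene Atp2a1 that of all genes was 10.3% and 6.80%. Of 155 such chains, 113 had a single read, 26 were seen in both libraries and 11 had at least 2 reads in each. Slc25a4 had 5 of these 11. In 3 of them 1 splice site lay 4 or 6 bases from an annotated one (13 and 2, 5 and 3, and 5 and 2 reads), 1 removed an intron of 70 bases within exon 2 at chr8:46209207-46209276 (3 and 5 reads) and 1 spliced out chr8:46208473-46210997, exon 2 included (3 and 3 reads). In Slc25a3, a chain used a donor 4 bases from the annotated one (11 and 2 reads), and another had an acceptor moved by 3 bases as well (7 and 4 reads). Slc25a15 had a chain with an intron at chr8:22395828-22397957 whose donor is not annotated (7 and 3 reads), and Slc25a11 had a combination of annotated introns (4 and 4 reads). No internal exon of a member lay between 10 and 90% inclusion in both libraries in Known models with at least 20 informative reads in each.

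In 4 places 2 members lie next to each other in the genome with no other coding gene between them. Slc25a29 (32 and 14 reads) and Slc25a47 (2 and 0) lie 162 bases apart on opposite strands of chromosome 12. Slc25a23 (34 and 17) lies 2056 bases from Slc25a41 (0 and 0), and Slc25a5 (354 and 1347) lies 18448 bases from Slc25a43 (0 and 0). In each of these 3 pairs 1 gene was at or below 3 reads in both libraries and the other was above. In the fourth pair, Slc25a54 (0 and 0) and Slc25a24 (0 and 1), 6461 bases apart on chromosome 3, both were at the floor.

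The genes that work with these carriers were described by lists of partners, 45 genes of which 43 were tested. Of these, 4 were called higher in replicate 1 and 5 higher in replicate 2, beside the same backgrounds of 9.94% and 10.6%, and the median log2 ratio was -0.07. The lists were chosen with results of these data known. All 4 malate-aspartate enzymes were read in both libraries, with Mdh2 highest (1310 and 1209 CPM), then Mdh1 (498 and 330), Got1 (347 and 130) and Got2 (269 and 165). Got1 was called higher in replicate 1 (433 and 144 reads, log2 ratio 1.22). Got2 was not called over all reads (0.51), but 102 of its 183 reads in replicate 2 were genomic. It was called higher in replicate 1 in Known models (1.17), in full splice models (1.12) and without genomic models (1.33). Among the 4 carnitine partners of Slc25a20, Crat had 687 and 252 CPM, the muscle carnitine palmitoyltransferase Cpt1b had 201 and 116, Cpt2 had 135 and 57.8 and the liver form Cpt1a had 8.81 and 2.71. Crat (1.25) and Cpt2 (1.02) were called higher in replicate 1. With the trend on the length of all but genomic models removed, their ratios were 0.68 and 0.82 and neither was called. Cpt2 was also not called in Known models (0.99), in full splice models (0.89), without genomic models (0.98) or with DESeq2 size factors.

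Among the 7 partners in phosphate and ATP handling, the muscle creatine kinase Ckm had 61198 and 60042 CPM, above every member, and the ATP synthase subunits Atp5b, Atp5a1 and Atp5e had 5219 and 5320, 3707 and 1769, and 921 and 2036 CPM. Atp5e, with models of 426 bases, was called higher in replicate 2 (log2 ratio -1.34), but with the 2 length trends removed its ratio was 0.30 and 0.33 and it was not called. The mitochondrial creatine kinase Ckmt2 (1348 and 654 CPM) went the other way. It was not called on the TMM scale (0.85), but was called higher in replicate 1 with the 2 trends removed (1.19 and 1.18) and with total scaling (1.04). The 3 outer membrane channels Vdac1, Vdac2 and Vdac3 gave 1168 and 1027 CPM together, and none was called over all reads. Vdac1, of whose 294 reads in replicate 2 90 were genomic, was called higher in replicate 1 in Known models (1.14), in full splice models (1.01) and without genomic models (1.10). The 13 genes of carrier import summed to 990 and 1469 CPM. Tomm20 was highest (256 and 418 CPM), and Timm13 (-1.38), Timm8b (-1.40), Timm10 (-1.68) and Timm10b (-1.54) were called higher in replicate 2. Timm10b and Tomm20 were the import genes called once the length trend was removed. The other inner membrane transporters, 9 genes led by the pyruvate carrier subunits Mpc1 (209 and 318 CPM) and Mpc2 (232 and 283), had no call. Of the carriers of the same fold outside the symbol rule, Mtch1 had 313 and 200 CPM, Mtch2 had 142 and 130 and Ucp2 had 23.2 and 25.3. The muscle uncoupling protein Ucp3 had 124 and 32 reads (log2 ratio 1.57) and was called higher in replicate 1, and Ucp1, the mark of brown fat, had no read.

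Markers of other cells that can hold these carriers were read beside them. The mitoferrin Slc25a37 and the glycine carrier Slc25a38 are known for haem synthesis in red cells. Of 7 erythroid genes, Slc4a1 had no read and the summed level was 1824 and 1553 CPM. Of the 5 tested, Alas2 had 39 and 8 reads (log2 ratio 1.86) and was called higher in replicate 1, while the globins Hba-a1 (-0.19), Hba-a2 (0.03), Hbb-bs (0.29) and Hbb-bt (0.69) were not called. With either length trend removed, all 5 were called higher in replicate 1. The part of red cell RNA in the ratio of Slc25a37 was not tested. Of 5 fat genes, the sum was 20 and 30 reads with Ucp1 at 0. Fibroblast genes summed to 7919 and 3397 CPM, endothelial genes to 231 and 148 and macrophage genes to 39.2 and 21.7. Called higher in replicate 1 were 1 of 4 fibroblast, 2 of 3 endothelial and 1 of 2 macrophage genes tested, against 9.94% of all genes. With the trend on Known length removed none of these was called, against 3.18% and 6.22% in the 2 directions. The part of these cells in the members' ratios was not tested. In tissue RNA, fewer cells of a type and less RNA per cell cannot be told apart.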

How the data were processed

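Long-read RNA sequencing of 2 gastrocnemius libraries in 1 group was used. For each library the authors deposited raw read counts per transcript model, not normalized per the file headers, with each model's exon number and length, and an annotation file. The notes beside the files name mm10 and GENCODE M21, and attributes name TALON. The TALON version and the aligner count as not given in the sources used here. Gene positions are those of GENCODE M21, whose gene ends can differ from the deposited ones.

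Counts were summed over all models of an annotated gene. Spike-ins and unannotated loci were left out. The written plan named reads of Known models, and the member rule all models of annotated genes. The rule was followed, with Known models as an alternative. Ratios used TMM (edgeR 4.0.16, R 4.3.3) and a prior count of 0.5, and tests were Fisher's exact (scipy 1.17.1), checked on simulated data. With a length trend removed, a two-sided binomial test against the share given by the trend took the place of Fisher's test. The simulated counts held set changes and counting error but no other spread between libraries. They cannot show how Fisher's test behaves where such spread exists. Alternatives were DESeq2 1.42.0 size factors, total scaling, read filters, model classes, length and edgeR's exact test. Coding sequences came from GENCODE M21 transcripts, and promoters (36 of 47 members matched) from RefSeq, GRCm38.p6. Protein sequences were not used here. Members with a mean of at least 100 CPM, every called member and those without reads are named, the rest by role. 1 member and 1 marker gene are not reported here by name. Members and lists were chosen with earlier results of these data known.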

Additional observations from a re-analysis of the deposited data

Results flagged for a closer look

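Reads of antisense loci, models on the opposite strand that the authors assigned to no annotated gene, were not used above. Over 8 members such loci had more than the 3 reads that a count of 0 allows in at least 1 library. The locus over the carnitine carrier Slc25a20 had 1 and 31 reads in replicates 1 and 2, beside 41 and 23 of the gene itself. Those over Slc25a46 had 5 and 13 reads and over Slc25a12 had 0 and 13. Slc25a36 had 4 and 9 antisense reads, Slc25a16 had 2 and 8, and Slc25a37 had 0 and 4. Antisense reads over Slc25a3 (8 and 2) and Slc25a17 (5 and 2) were the ones with more reads in replicate 1. Unannotated loci of all kinds held 21104 and 56376 reads.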

How the results depend on the processing

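Among members called higher in replicate 1 (4), the count was 2 with at least 50 reads and with the trend on Known length removed, 1 with the trend on the length of all but genomic models removed (chosen after the data were seen), and 0 by edgeR's exact test, with 2 unadjusted p under 0.05. Among those called higher in replicate 2 (1), it was 0 in Known models, in full splice models, with genomic models left out (also chosen later) and by edgeR's exact test, and 2 with either length trend removed, where Slc25a44 joined. The family sum was 13613 CPM in full splice models, and the share of Slc25a4 was 83.5% in Known models and 85.2% without genomic ones. Without replicate 1 or 2 the sum was 16553 and 14180 CPM, the share 82.7 and 79.9% and exon 3A 95.4 and 95.3%.

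Of the 26 ratios, 11, none of them called, kept their sign and stayed uncalled in each of the 8 to 10 alternatives that gave them a value, and 5 changed sign in at least 1. Slc25a44 was 0.44 in Known models, 0.31 in full splice models and 0.48 without genomic ones. Slc25a36 was 0.15 in full splice models and 0.064 with total scaling, Slc25a39 was 0.16 with total scaling and 0.15 and 0.19 with the 2 length trends removed, Slc25a32 was -0.12 and -0.15, and Slc25a51 was -0.021 with the second. The causes were not tested. Total scaling moved the median of all genes from 0.10 to 0.29 and added Slc25a12 and Slc25a46 to the calls. Depth limits members with few reads, and 2 libraries of 1 group give no test of a condition.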
